A study of Mus musculus with 3 samples.

Results

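The genes that build tight junctions and gap junctions were examined in 3 bulk RNA sequencing libraries of sorted mouse mammary cells. The set was chosen by name, from protein-coding genes of the claudin, connexin, zonula occludens, occludin, MARVEL domain and cingulin families with 2 junctional adhesion molecules, F11r and Jam3. The results cover 49 such genes of the 52661 gene identifiers in each table, namely 23 claudins, 16 connexins, 4 genes of the occludin and MARVEL family, 2 zonula occludens genes, 2 cingulin genes and the 2 adhesion molecules. The labels call all 3 populations PROCR+ mammary epithelial cells, and a shared gate took cells with EpCAM and a high level of CD49f. One library, here CD36+ cells, came from CD36+ PDPN- cells and has Cdh5+ and Cd36+ in its title. Another, PDPN+ cells, came from CD36- PDPN+ cells and has Cdh5- in its title. The last, double-negative cells, came from CD36- PDPN- cells and has Cdh5+ and Cd36- in its title. Cd36 itself stood at 4766 CPM in the library labelled CD36+, 1523 CPM in that labelled double-negative and 45.1 CPM in that labelled PDPN+. The double-negative library, though sorted as CD36-, was thus far from free of Cd36 RNA. Pdpn stood at 12.5, 32.3 and 830.2 CPM in the same order. A sort gate reads protein and these values are RNA, so they do not show whether the gate was met. CD36+, PDPN+ and double-negative cells below name the libraries by these labels. Each population is represented by a single library. The spread between replicates is therefore unknown, no difference could be tested, and a difference between cells below is one between 2 libraries. Intervals (95%) cover counting error alone and treat each read as independent. The sources used here mention no molecular identifiers, so duplicate reads could not be set apart and would make the intervals too narrow. Strain, age and the number of mice or cells were not given in the sources used here.

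Claudins are membrane proteins that join across the gap between neighbouring cells and set which ions and solutes can pass between them. Each epithelium or endothelium carries its own mixture, and the scaffold proteins of the zonula occludens family tie the strands to actin. Occludin and its relatives with a MARVEL domain lie in the same strands, and cingulin and paracingulin lie on their inner face. Connexins assemble into gap junction channels, through which ions and small metabolites pass directly from cell to cell. In the mammary gland, the luminal cells bear the tight junctions that seal the ducts, and the basal cells are coupled by gap junctions.

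The estimated counts summed to 67675778 for CD36+ cells, 63871266 for PDPN+ cells and 51138993 for double-negative cells. Levels are given in CPM, counts relative to library size after TMM scaling between libraries. TPM, which is corrected for transcript length, is used where levels of different genes are ranked, unless CPM or reads are named. The labelled epithelial identity was checked against marker genes. The summed level of 6 endothelial markers was 4750 CPM (CD36+), 3399 CPM (double-negative) and 122 CPM (PDPN+), and that of 6 basal epithelial markers 45.0, 191 and 4771 CPM in the same order. Of 6 general epithelial markers, 4 reached 10 CPM in PDPN+ cells, 1 in CD36+ cells (Epcam, 50.7 CPM) and 2 in double-negative cells (Epcam and Cdh1), and Rab25 had 0 reads in the last 2. The 6 luminal epithelial markers summed to 324, 288 and 632 CPM in CD36+, double-negative and PDPN+ cells, and 4, 4 and 3 of them reached 10 CPM. In CD36+ cells, Krt8 (122 CPM) and Krt18 (131 CPM) were below PDPN+ cells (326 and 284 CPM). Krt19 (33.9 CPM) and Prlr (35.6 CPM) were above them (9.33 and 10.4 CPM). General epithelial markers were thus near or at 0 in CD36+ cells apart from Epcam, against the label, but these 4 luminal markers were not. Endothelial markers were high in CD36+ and double-negative cells. Their part in the junction gene differences was not tested. Immune markers summed to at most 16.9 CPM in any library, Schwann cell markers to at most 65.7 CPM and fibroblast markers to at most 561 CPM, the last 2 in PDPN+ cells. Pericyte markers summed to 259, 189 and 68.4 CPM in the CD36+, double-negative and PDPN+ libraries, most of it from Rgs5 (241, 164 and 51.9 CPM). The other markers of that list did not share 1 direction. Pdgfrb was highest in CD36+ cells (13.6 CPM), Abcc9 in double-negative cells (25.0 CPM) and Kcnj8 in PDPN+ cells (4.08 CPM). Cspg4 was alike in CD36+ and PDPN+ cells (3.61 and 3.65 CPM). Pdgfrb and Cspg4 had 3 reads each in double-negative cells, and Kcnj8 had 0. In bulk samples, fewer cells of a type and less RNA per cell cannot be told apart.

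Of the 49 junction genes, 17 reached 10 CPM in at least 1 library, 7 reached 1 to 10 CPM at most, and 25 stayed under 1 CPM in every library. The 17 were 8 claudins, 3 connexins, Marveld1, F11r, Jam3, Tjp1, Cgn and Cgnl1. Of these, 10 had at least 1 CPM in all 3 libraries. PDPN+ cells had the lowest level, or shared the lowest at 0 reads, for 14 of the 17 genes, where 35% of the 10223 genes that reach 10 CPM in some library were lowest there. CD36+ cells were lowest for 3 (30.7% of all genes) and double-negative cells for 2 (35.2%), ties at 0 reads included. The number for PDPN+ cells was 13 under total-count scaling and 13 by TPM. The 14 include Cldn15 and Cldn23, which are ties at 0 reads. They also include Marveld1, with 2 reads in both PDPN+ and CD36+ cells, an order that the scaling alone sets. Those with their highest level in PDPN+ cells were Cgnl1 and Cldn10.

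**Figure D1:**
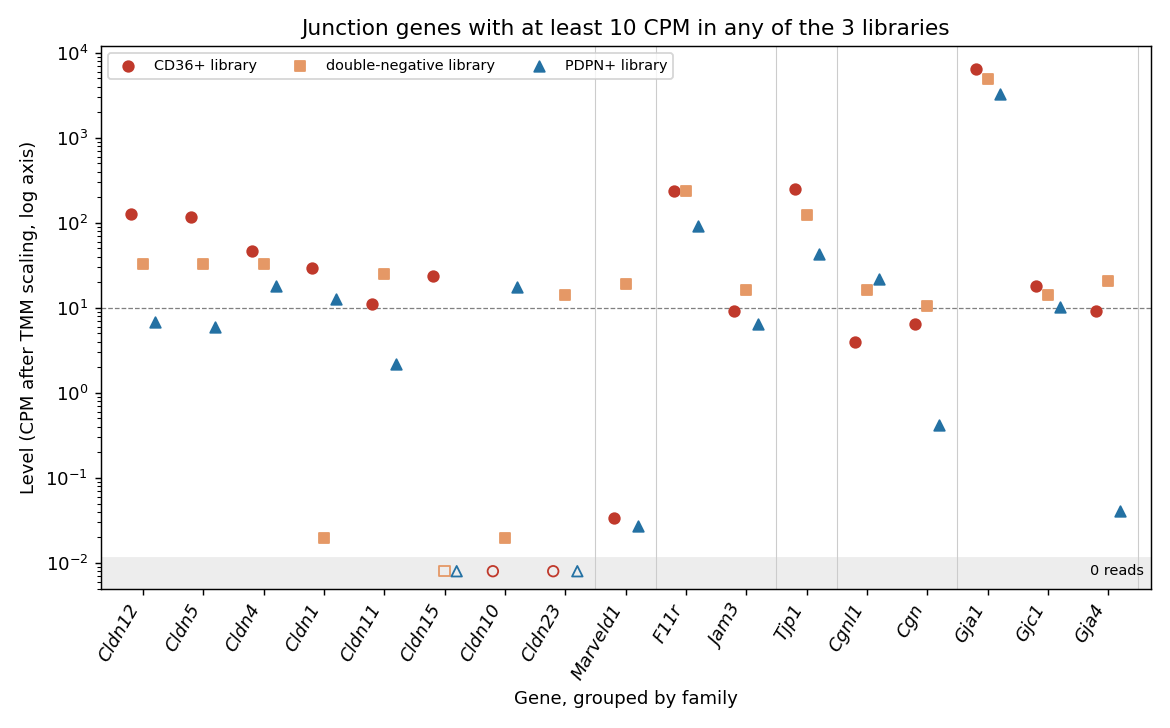
Level of each of the 17 junction genes that reach 10 CPM in a library (y axis, CPM after TMM scaling, log axis), grouped by family along the x axis, with 1 point for each of the 3 libraries. The dashed line marks 10 CPM, and open symbols in the grey band are libraries with 0 reads. CPM is not corrected for transcript length, so the points compare libraries within a gene. In this plot 6 genes have at most 3 reads in at least 1 library.

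Claudins were more abundant in CD36+ and double-negative cells, the libraries with high endothelial markers. Summed over the 23 claudin genes, TPM was 229 in CD36+ cells, 102 in double-negative cells and 56.9 in PDPN+ cells. Cldn5 encodes the main claudin of endothelial tight junctions, best known from the blood-brain barrier (chromosome 16, 18776847 to 18778262, plus strand of mm10). Cldn5 stood at 118 CPM in CD36+ cells, 32.9 CPM in double-negative cells and 5.92 CPM in PDPN+ cells. The CD36+ level was 19.9 times the PDPN+ level (95% counting interval 18.1 to 22.0), and the double-negative level 5.55 times (4.99 to 6.18). CD36+ and double-negative cells differed 3.60-fold in Cldn5 (3.41 to 3.79), below the 4-fold used to count a gene as apart.

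Cldn12, an atypical claudin, had the same order of libraries (chromosome 5, 5489537 to 5514958, minus strand). It stood at 126 CPM in CD36+ cells, 32.8 CPM in double-negative cells and 6.88 CPM in PDPN+ cells. CD36+ cells were 18.3-fold above PDPN+ cells (16.7 to 20.01) and 3.83-fold above double-negative cells (3.63 to 4.04). Double-negative cells were 4.77-fold above PDPN+ cells (4.31 to 5.27) by CPM and 3.57-fold by TPM. Cldn4, which is typical of simple epithelia such as the mammary luminal layer, differed less, at 46.6 CPM in CD36+ cells, 33.0 CPM in double-negative cells and 18.1 CPM in PDPN+ cells. No pair differed by more than 2.58-fold for Cldn4 (2.42 to 2.76, CD36+ over PDPN+).

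The remaining claudins above 10 CPM were above 10 CPM in 1 or 2 libraries and low or nearly without reads in another. Cldn1, the claudin that seals the epidermis, stood at 29.4 CPM in CD36+ cells and 12.5 CPM in PDPN+ cells, and had 1 read in double-negative cells. The ratio of CD36+ to PDPN+ cells was 2.34 (2.16 to 2.54). Against the single read of double-negative cells, Cldn1 was 1483-fold higher in CD36+ cells (266 to 58615) and 633-fold higher in PDPN+ cells (113 to 25023). Cldn11, a claudin of myelin and of Sertoli cells, was highest in double-negative cells, at 24.7 CPM, against 11.2 CPM in CD36+ cells and 2.16 CPM in PDPN+ cells. The double-negative level of Cldn11 was 11.4 times that of PDPN+ cells (9.66 to 13.5). Its CD36+ to PDPN+ ratio was 5.17 (4.34 to 6.18) by CPM and 3.69 by TPM, and it also fell short of 4-fold under total-count scaling.

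Cldn15, a pore-forming claudin of the intestine, stood at 23.5 CPM (1390 reads) in CD36+ cells and had 0 reads in both others. Cldn15 was at least 579-fold higher than in PDPN+ cells and at least 395-fold higher than in double-negative cells, taking 3 reads per library as the limit that 0 reads allow. Cldn10, which forms ion-selective pores, was the only claudin above 10 CPM that was highest in PDPN+ cells (chromosome 14, 118787908 to 118875489, plus strand). It stood at 17.8 CPM there, with 0 reads in CD36+ cells and 1 read in double-negative cells. Cldn10 was at least 351-fold higher in PDPN+ than in CD36+ cells and 898-fold higher than in double-negative cells (161 to 35486). Cldn23 had 721 reads, or 14.3 CPM, in double-negative cells and 0 in both others, at least 352-fold more than in PDPN+ and at least 282-fold more than in CD36+ cells.

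The make-up of the claudin pool, measured as each gene's share of the summed claudin TPM, differed between libraries. Cldn5 made up 46.3% of claudin TPM in CD36+ cells, 31.5% in double-negative cells and 13.1% in PDPN+ cells. Cldn4 led in PDPN+ cells with 30.1%, followed by Cldn10 with 28.9%, and made up 13.7% and 23.9% in the CD36+ and double-negative libraries. Cldn12 came second in CD36+ cells, with 18.1%. Cldn11 came next after Cldn5 and Cldn4 in double-negative cells, with 17.3%, and Cldn23 took 10.1% there. These shares depend on the length correction, and by reads Cldn12 was ahead of Cldn5 in CD36+ cells, with 34.1% against 32.05%.

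**Figure D2:**
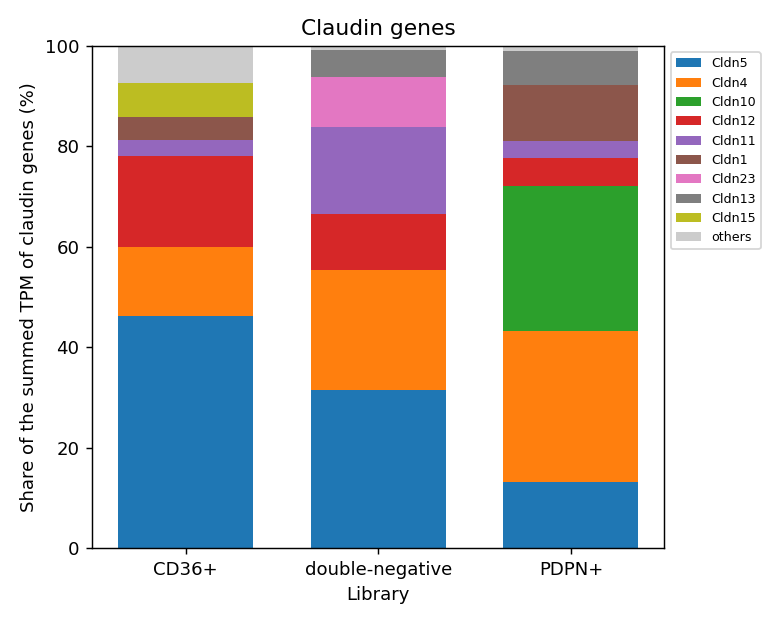
Share of the summed TPM (y axis, %) taken by each claudin gene in the 3 libraries (x axis). Each bar adds to 100%, and genes with small shares are pooled in light grey at the top. Cldn5 takes 46.3% of claudin TPM in CD36+ cells and 13.1% in PDPN+ cells, where Cldn4 and Cldn10 take the most.

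In the occludin and MARVEL family, Ocln itself was low, at 5.71 CPM in CD36+ cells, 5.37 CPM in double-negative cells and 3.34 CPM in PDPN+ cells. No pair differed by more than 1.71-fold (1.45 to 2.02). By TPM the order was the reverse, with 1.63 in CD36+, 3.60 in double-negative and 5.67 in PDPN+ cells. The transcript length implied by the ratio of reads to TPM was 3861 bases for Ocln in CD36+ cells, 1798 bases in double-negative cells and 910.5 bases in PDPN+ cells, so reads had been assigned to transcripts of different length, and no direction can be given for Ocln. Marveld1 stood at 19.0 CPM in double-negative cells and had 2 reads in each of the other two, a ratio of 701 to PDPN+ cells (193 to 5796) and 561 to CD36+ cells (155 to 4639). Marveld2, the tricellulin gene, had at most 3 reads in any library, and Marveld3 had 32 reads in PDPN+ cells and 0 in the others.

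Both junctional adhesion molecules, immunoglobulin proteins of the junction, had their lowest CPM in PDPN+ cells, Jam3 by a small margin. F11r, which encodes JAM-A (chromosome 1, 171437535 to 171464603, plus strand), had 237 CPM in CD36+ cells, 234 CPM in double-negative cells and 90.9 CPM in PDPN+ cells. The first 2 did not differ beyond counting error (ratio 1.01, 0.989 to 1.04), and their order turned with the scaling. Both were above PDPN+ cells, CD36+ cells 2.61-fold (2.54 to 2.69) and double-negative cells 2.58-fold (2.499 to 2.65). Jam3 had 9.24 CPM in CD36+, 16.2 CPM in double-negative and 6.52 CPM in PDPN+ cells, and its double-negative level was 2.49 times the PDPN+ level (2.22 to 2.79). Its CD36+ level was 1.42 times the PDPN+ level (1.25 to 1.61), or 1.24 times by TPM. That log2 ratio was 0.50 with TMM and 0.10 with total counts. An antisense gene overlaps Jam3 and had 555, 12 and 0 reads in CD36+, double-negative and PDPN+ cells. Since it is not known which libraries kept strand, reads of such a pair may not be separable. The order of Jam3 between CD36+ and PDPN+ cells is therefore uncertain. Cldn3 and Cldn19 also overlap antisense genes, with 100, 103 and 108 reads for that of Cldn3 and 0, 0 and 99 reads for that of Cldn19 in CD36+, double-negative and PDPN+ cells.

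Of the scaffolds, Tjp1, the founding zonula occludens gene (chromosome 7, 65296165 to 65527781, minus strand), differed by more than 4-fold in 1 pair. It stood at 249 CPM in CD36+ cells, 123 CPM in double-negative cells and 42.8 CPM in PDPN+ cells. The CD36+ level of Tjp1 was 5.82 times the PDPN+ level (5.598 to 6.05) and 2.03 times the double-negative level (1.97 to 2.09), and the double-negative level was 2.87 times the PDPN+ level (2.75 to 2.998), or 1.899 times by TPM. Tjp3, of the same family, had at most 3 reads in any library. The cingulin genes went in different directions. Cgn, which encodes cingulin, stood at 6.47 CPM in CD36+ cells, 10.6 CPM in double-negative cells and 0.419 CPM in PDPN+ cells, 25.2-fold lower in PDPN+ than in double-negative cells (17.5 to 37.4) and 15.4-fold lower than in CD36+ cells (10.7 to 23.0). By TPM the latter was 6.18-fold, and the length behind the TPM of Cgn was 3959.8 bases in CD36+, 2037 bases in double-negative and 2224 bases in PDPN+ cells, so the size of the Cgn difference from CD36+ cells depends on the scale. Cgnl1, which encodes paracingulin, was highest in PDPN+ cells, at 21.9 CPM, against 16.3 CPM in double-negative and 3.97 CPM in CD36+ cells. Cgnl1 was 5.53-fold lower in CD36+ than in PDPN+ cells (4.82 to 6.37) and 4.12-fold lower than in double-negative cells (3.56 to 4.78), which is close to the 4-fold limit.

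By TPM, Gja1 was the most abundant of the 49 genes in each library, at 2511 in CD36+, 2087 in double-negative and 1764 in PDPN+ cells (chromosome 10, 56377330 to 56402513, plus strand). Gja1 encodes the most widespread connexin, found in myoepithelial cells, endothelium and fibroblasts. It stood at 6493 CPM in CD36+ cells, 4902 CPM in double-negative cells and 3275 CPM in PDPN+ cells. CD36+ cells were 1.98-fold above PDPN+ cells (1.97 to 1.99), and double-negative cells 1.497-fold (1.49 to 1.51). The log2 ratio of CD36+ to PDPN+ cells for Gja1 was 0.99 with TMM, 0.58 with total counts and 1.26 with upper quartile scaling, a wider range than counting error gives.

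Gja4, a connexin of arterial endothelium, was nearly without reads in PDPN+ cells (chromosome 4, 127311421 to 127314039, minus strand). It stood at 20.7 CPM in double-negative cells and 9.05 CPM in CD36+ cells, and had 3 reads in PDPN+ cells. Double-negative cells were 511-fold above PDPN+ cells (174 to 2483) and 2.29-fold above CD36+ cells (2.06 to 2.55). CD36+ cells were 223-fold above PDPN+ cells (76.0 to 1086), though below 10 CPM. Gjc1, a connexin of vascular smooth muscle and heart, differed by at most 1.73-fold (1.57 to 1.90), at 17.9 CPM in CD36+, 14.0 CPM in double-negative and 10.3 CPM in PDPN+ cells, and by TPM CD36+ cells were the lowest of the 3.

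The bases before the start sites of 4 of these genes are shown because they stand for the patterns described. Gja1 was abundant in every library, Cldn5 and Gja4 were lowest in PDPN+ cells, and Cldn10 was highest there and has 2 annotated starts. Each sequence is the 250 bases upstream of a RefSeq start (GRCm38.p6), given 5′ to 3′ on the gene's strand. Capitals mark the E-box letters CANNTG, which E proteins such as the product of Tcf4, named in the title of the series, can bind, and the core letters GGAAG of ETS factors, searched on both strands, so that GGAAG on the other strand reads CTTCC. The 2 motifs overlap in 1 place, before the Gja1 start.
Gja1, chr10:56377050-56377299, plus strand: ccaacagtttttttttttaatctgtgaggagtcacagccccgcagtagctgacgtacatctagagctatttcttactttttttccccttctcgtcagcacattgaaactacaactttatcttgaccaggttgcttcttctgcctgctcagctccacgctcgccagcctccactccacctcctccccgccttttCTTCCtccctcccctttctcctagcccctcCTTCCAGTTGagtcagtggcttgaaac
Cldn5, chr16:18776597-18776846, plus strand: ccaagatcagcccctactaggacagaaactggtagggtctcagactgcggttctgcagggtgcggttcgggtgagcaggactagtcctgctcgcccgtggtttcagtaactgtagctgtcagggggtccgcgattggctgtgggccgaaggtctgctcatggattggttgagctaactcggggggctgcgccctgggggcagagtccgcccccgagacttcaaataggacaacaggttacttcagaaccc
Gja4, chr4:127314040-127314289, minus strand: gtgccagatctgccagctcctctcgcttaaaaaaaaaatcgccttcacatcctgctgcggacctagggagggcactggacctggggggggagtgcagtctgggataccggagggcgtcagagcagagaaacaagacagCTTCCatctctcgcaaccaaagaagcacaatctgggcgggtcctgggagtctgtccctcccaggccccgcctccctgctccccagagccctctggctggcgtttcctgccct
Cldn10, first start, chr14:118787621-118787870, plus strand: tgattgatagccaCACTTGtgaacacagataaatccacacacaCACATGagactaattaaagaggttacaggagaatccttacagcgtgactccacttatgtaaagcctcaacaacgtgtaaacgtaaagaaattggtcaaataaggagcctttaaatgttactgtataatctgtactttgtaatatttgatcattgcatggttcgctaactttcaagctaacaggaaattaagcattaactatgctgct
Cldn10, second start, chr14:118854700-118854949, plus strand: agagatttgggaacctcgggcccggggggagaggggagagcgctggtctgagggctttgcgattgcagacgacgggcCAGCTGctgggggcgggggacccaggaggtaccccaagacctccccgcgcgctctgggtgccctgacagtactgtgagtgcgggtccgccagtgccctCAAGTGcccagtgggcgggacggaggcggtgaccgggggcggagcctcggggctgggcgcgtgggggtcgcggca

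CANNTG occurred once before the Gja1 start, 23 bases upstream of it counting from the first base of the motif, and 2 times before each Cldn10 start, and these letters were not in the windows of Cldn5 and Gja4. GGAAG on either strand occurred 2 times before Gja1 and 1 time before Gja4. Of the 17 junction genes above 10 CPM, 14 had an entry with 17 starts in all. CANNTG lay before 10 of the 17 starts (58.8%), against 66.2% of 32851 windows of the same length before all RefSeq starts, and GGAAG also before 10, against 64.1% of all windows. A match describes letters only.

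Between the CD36+ and PDPN+ libraries, 12 of the 49 genes had at least 10 CPM in either library. A gene can pass this minimum through its higher library alone, which raises the number found apart, and the same holds for all genes beside which the counts are set. Of the 12, 5 were at least 4-fold higher in CD36+ cells, namely Cldn15, Cldn5, Cldn12, Cldn11 and Tjp1, where 15.1% of all 9387 genes with such a level were. The 2 at least 4-fold lower were Cldn10 and Cgnl1, where 17.6% of all genes were. Those are shares of 41.7% and 16.7% of the 12, with a median log2 ratio of 1.38 over the 12, against -0.02 over all genes tested. At 2-fold, Cldn4, Cldn1 and F11r joined the higher genes, making 8 (25.3% of all genes), and the 2 lower ones remained (28%). Requiring a mean of 10 CPM over the 3 libraries, which a gene can still pass through 1 high library, left 11 genes, with 4 higher (13.5% of all genes) and 1 lower (12.7%). By TPM, with 10 TPM as the minimum, 10 genes were left, with 4 higher (11.9% of all genes) and 1 lower (22.3%). Cgnl1 dropped out there for its level of 5.33 TPM, with a TPM fold of 7.76, and Cldn11 for its fold of 3.69.

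Between the double-negative and PDPN+ libraries, which share PDPN+ cells with the previous comparison, 16 genes had that level. Of these, 7 were at least 4-fold higher in double-negative cells, namely Cldn23, Marveld1, Gja4, Cgn, Cldn11, Cldn5 and Cldn12, where 14.9% of all 9515 genes were. The 2 lower ones were Cldn10 and Cldn1, where 19.3% of all genes were. The median log2 ratio was 1.44, against -0.11 over all genes. With a mean of 10 CPM over the 3 libraries the counts were 3 and 1 of 11, against 12.8% and 14.3% of all genes, and Cldn11, Cldn5 and Cldn12 were those still higher. At 2-fold, 10 genes were higher (25.4% of all genes) and 2 lower (30.2%). By TPM, 12 genes were left, with 4 higher (12.7% of all genes) and 1 lower (22.2%) at 4-fold. Cldn12 dropped out for its TPM fold of 3.57. Marveld1, Cgn and Cldn1 dropped out because their levels of 7.94, 6.26 and 6.32 TPM are under the minimum, with TPM folds of 678, 21.6 and 810.4.

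Between the CD36+ and double-negative libraries, 16 genes had that level and 11 were less than 4-fold apart. Cldn15 and Cldn1 were at least 4-fold higher in CD36+ cells (12.2% of all 8968 genes), and Cldn23, Marveld1 and Cgnl1 at least 4-fold lower (11.9%). The median log2 ratio was 0.19, against 0.11 over all genes. The 2 and 3 genes, or 12.5% and 18.8% of the 16, are near the shares of all genes. By TPM the counts were 2 (10.2% of all genes) and 1 (12.8%) of 13, without Marveld1 and Cgnl1, whose levels are under 10 TPM. With a mean of 10 CPM over the 3 libraries they were 1 and 1 (9.55% and 8.54% of all genes), and at 2-fold 5 and 5 (22.9% and 21% of all genes).

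**Figure D3:**
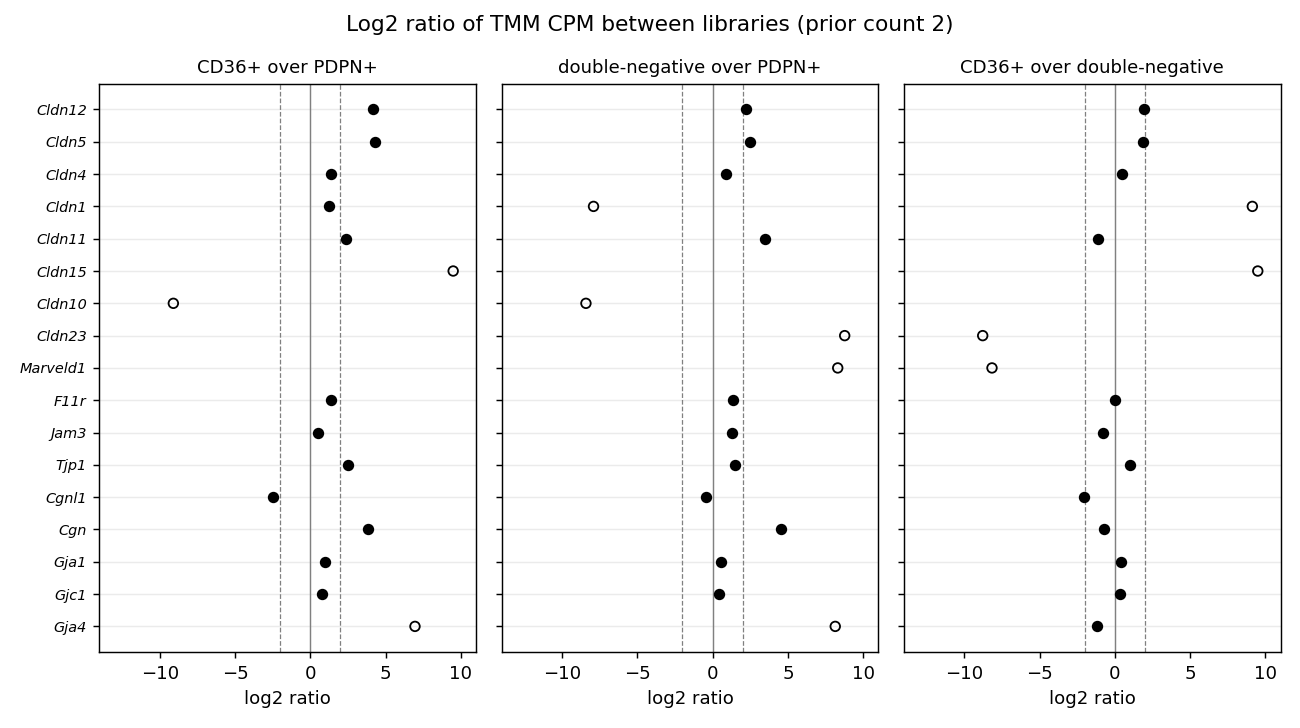
Log2 ratio of CPM (x axis, prior count 2) for the 17 junction genes above 10 CPM (y axis) in the 3 pairs of libraries. Dashed lines mark 4-fold, open symbols are ratios in which 1 library has at most 3 reads, and no point is drawn where both libraries have at most 3 reads. Cldn5 and Cldn12 lie to the right in all 3 panels, and Cldn10 far to the left in both panels that use PDPN+ cells.

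Some genes of the set had reads in 1 library and almost none in the others. Of the 17 genes, 6 had at most 3 reads in at least 1 library, or 35.3%, against 13.4% of all 10223 genes above 10 CPM in any library. Among the 17, 4 were at 10 CPM or more in a single library with at most 3 reads in each of the other two, or 23.5%, against 3.46% of all genes. They were Cldn15 in CD36+ cells (0.646% of all genes), Cldn10 in PDPN+ cells (1.97%), and Cldn23 and Marveld1 in double-negative cells (0.851%). This count was made after the values were seen. Each of the 4 passed 10 CPM only through the library where it is high, at 14.3 to 23.5 CPM. The share over all genes is not matched for level, so these shares do not establish a trait of the set. The labels name a library kit for scarce RNA and another for abundant RNA without saying which library had which, so a difference of kit cannot be told apart from one of population. Cldn3 and Cldn7, claudins typical of luminal epithelium, behaved in the same way below 10 CPM. Cldn3 had 454 reads (7.67 CPM) in CD36+ cells and 1 read in each of the others, and Cldn7 had 313 reads (5.29 CPM) in CD36+ cells, 5 in double-negative and 1 in PDPN+ cells. Cldn13 had 203 reads in double-negative cells, 163 in PDPN+ cells and 0 in CD36+ cells, where its neighbours on chromosome 5, Cldn4 and Cldn3, were both highest. Cldn13, Cldn4 and Cldn3 are separated by 29.6 and 39.3 kb.

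The other genes with 1 to 10 CPM at most were Ocln, Gjc3, Cldn19 and Gjd4. Gjc3 had 131 reads in CD36+, 148 in PDPN+ and 150 in double-negative cells, and Cldn19 had 70, 80 and 81 in the same order. Neither differed by as much as 2-fold in any pair. Gjd4 had 90 reads in CD36+, 45 in double-negative and 3 in PDPN+ cells. Of the 25 genes under 1 CPM, 22 had at most 3 reads in every library and 7 had 0 in all 3, namely Cldn16, Cldn17, Cldn22, Cldn24, Gja10, Gjb1 and Gjd3. Marveld3 had the most CPM of the 25, 0.433 in PDPN+ cells. Cldn2, Cldn6, Cldn8, Cldn9, Cldn14, Cldn18, Cldn20, Gja3, Gja5, Gja6, Gjb2, Gjb5, Gjb6, Gjd2, Marveld2 and Tjp3 were detected in no library beyond 4 reads, and Gje1 and Marveld3 had up to 12 and 32 reads. Gjb2 and Gjb6, connexins of luminal mammary epithelium, had at most 2 reads each.

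Other genes of cell junctions outside the named families divided between the libraries in both directions. Of 43 such genes found in the tables, 32 had at least 10 CPM in the CD36+ or PDPN+ library, and 10 were at least 4-fold higher in CD36+ and 8 in PDPN+ cells, with a median log2 ratio of -0.21. These are 31.2% and 25% of the 32, where 15.1% and 17.6% of all genes were so far apart. The 10 include Cdh5 and Pecam1 and the 8 include Cdh1 and Epcam. These served as markers above, and Cdh5 is in the titles, so their directions were known before the count, here and against double-negative cells. In double-negative cells, 9 of 31 were at least 4-fold higher and 12 lower than in PDPN+ cells, with a median of -0.63. These are 29.0% and 38.7% of the 31, where 14.9% and 19.3% of all genes were. Between CD36+ and double-negative cells, 27 had that level, Clmp and Tmem204 were at least 4-fold higher in CD36+ cells, and Cdh1 and Sympk at least 4-fold lower. Each side is 7.41% of the 27, below the 12.2% and 11.9% of all genes. Jam2, a junctional adhesion molecule of endothelium, stood at 796 CPM in CD36+ cells, 612 CPM in double-negative cells and 13.0 CPM in PDPN+ cells. Tmem47, a claudin-like membrane protein gene, stood at 409, 302 and 170.4 CPM, and Cldnd1, which encodes a protein with a claudin domain, at 196, 143 and 428 CPM in the same order. Pecam1, Cdh5 and Epcam complete the 6 with the highest mean CPM, Pecam1 and Cdh5 being higher in the CD36+ and double-negative libraries and Epcam in PDPN+ cells. Further genes of the list were picked after their values were seen. Esam, an endothelial relative of the adhesion molecules, had 282, 116 and 0.0135 CPM, and the epithelial adhesion molecule gene Cxadr 29.8, 12.6 and 344 CPM in the CD36+, double-negative and PDPN+ libraries. The polarity gene Crb3 had 0 reads in the CD36+ and double-negative libraries and 11.2 CPM in PDPN+ cells. Patj and Pard6g of the list were likewise at least 4-fold higher in PDPN+ cells than in either other library. Mpp5 and Rab13 went the other way. Mpp5 had 185, 213 and 45.1 CPM and Rab13 50.3, 23.8 and 3.30 CPM in the CD36+, double-negative and PDPN+ libraries. By TPM the Mpp5 ratio of CD36+ to PDPN+ cells was 1.51.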

How the data were processed

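Total RNA came from one of a pair of extraction kits, per the labels' protocols, and libraries were made with a low-input kit where RNA was scarce and with a stranded, ribosomal RNA depleted kit where it was abundant. The sources do not say which kit, instrument or strand setting belongs to which population. The authors deposited for each library a table of estimated counts per gene (reads, which need not be whole) and TPM, made with Salmon 0.9.1 on mm10, per the submitters' processing notes. Gene lengths, also deposited by the authors, were not used, since those of genes with several transcripts did not match the ratio of reads to TPM.

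Identifiers were matched without version to GENCODE symbols (52566 of 52661). Counts were scaled by TMM in edgeR 4.0.16 (R 4.3.3) and ratios taken with a prior count of 2. Intervals of a fold are exact (Clopper-Pearson, 95%, scipy 1.17.1) on the counts rounded to whole numbers. A gene counted as apart at 4-fold or more with 10 CPM in the higher library, and the same count over all genes gave the background. With 0 reads, 3 counts were the floor (0.0507, 0.0406 and 0.0594 CPM in CD36+, PDPN+ and double-negative cells). Of the 49 genes, 9 had counts that were not whole in some library (tolerance 0.001), which can arise where reads are shared with other genes. They were F11r, Gjc1, Jam3, Cgn, Ocln, Gjc3, Cldn19, Gje1 and Gja5, and intervals given for them leave this sharing out. Every gene with 10 CPM in any library was named with its 3 values. The other junction genes were counted, and the 6 with the highest mean were named. Alternatives were total counts, upper quartile and DESeq2 1.42.0 size factors, TPM with a pseudocount of 0.1, another prior count and other minimum levels and folds. The count with a mean over the libraries and the shares by reads were added after seeing the data. Scripts were tested on simulated data. A further 5 genes that the choice by name covers are not reported here and enter no count of the set, so the balance of directions describes the 49 genes only. The genes and lists were chosen with earlier results of these data known. Upstream sequences came from RefSeq tables of GRCm38.p6.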

Additional observations from a re-analysis of the deposited data

How the results depend on the processing

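The members counted as apart were the same under upper quartile scaling, DESeq2 size factors and a prior count of 0.5. Total-count scaling lost Cldn11 between CD36+ and PDPN+ cells. These scalings shift the median log2 ratio of all genes between CD36+ and PDPN+ cells by -0.40 (total counts) and 0.27 (upper quartile), and by -0.48 for TPM, and the all-gene split of 1415 higher and 1654 lower became 1120 and 2124 (total counts) or 1660 and 1381 (upper quartile). By TPM, 4 members in place of 7 were higher in double-negative than PDPN+ cells (12.7% of all genes) and 1 in place of 2 was lower (22.2%). In CD36+ cells, 1 in place of 2 was lower than in PDPN+ cells (22.3% of all genes), and 1 in place of 3 was lower than in double-negative cells (12.8%). A minimum of 1 CPM gave 10 of 22 members higher in CD36+ than PDPN+ cells (16.8% of all genes) and 3 lower (22.8%). In CD36+ against double-negative cells, 4 of 23 were higher (17.5% of all genes) and 4 lower (16.7%), which is near the shares of all genes. With no minimum, CD36+ against PDPN+ cells gave 10 higher and 4 lower of 49 (6.79% and 9.51% of all genes). CD36+ against double-negative cells again gave 4 higher and 4 lower (6.99% and 7.17% of all genes). At 2-fold, 8 members were higher in CD36+ than PDPN+ cells (25.3% of all genes). Against double-negative cells, 5 were higher and 5 lower in CD36+ cells (22.9% and 21% of all genes). A mean of 10 CPM over the libraries, chosen after seeing the data, gave 3 members higher and 1 lower in double-negative than PDPN+ cells (12.8% and 14.3% of all genes). It gave 1 lower in CD36+ than PDPN+ cells (12.7%), and 1 higher and 1 lower in CD36+ than double-negative cells (9.55% and 8.54%). Another minimum or fold admits other genes, while total counts and TPM also change the levels and ratios themselves. By TPM, Marveld1, Cgn, Cldn1 and Cgnl1 fell under the minimum of 10 TPM, and only Cldn12 and Cldn11 fell under 4-fold. By reads in place of TPM, also chosen after seeing the data, Cldn5 made up 32.05% and 22.9% of claudins in CD36+ and double-negative cells and Cldn4 27.1% in PDPN+ cells. Shares were computed for claudins only. No direction of a counted member reversed under these settings. No paired analysis was possible because each group holds 1 library, and for the same reason none could be left out. Depth limits genes under 1 CPM.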
